A study of Mus musculus with 6 samples.

Results

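The genes described are 37 of the extracellular matrix and of the fibroblasts that make most of it, in mouse pancreatic islets over the day. They are a named list of collagens, matrix proteins, matrix-modifying enzymes and fibroblast genes, and a probe was taken for a member where its transcript accession belonged to that gene in RefSeq. All 37 had a probe, among 20659 genes with a RefSeq symbol on the array. After the filters on signal and outlier spots 35 members were tested, among 24127 genes in all. Of those 24127, 16804 had a RefSeq symbol, while the other 7323 were counted as genes under the name in the array files, so shares of all genes are over this mix. Col15a1 did not pass because its best probe was well above background on only 2 of 6 arrays, and Timp1 did not pass because its spot was flagged as an outlier at ZT0.

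The islets came from male C57BL6 mice aged 8 weeks that ate rodent chow in 12 h of light and 12 h of dark. They were collected at zeitgeber times ZT0 (lights on), ZT4, ZT8, ZT12 (lights off), ZT16 and ZT20, so that strain, sex, age and diet were the same in every group. For each time, RNA of islets freed by collagenase was pooled from 3 to 5 mice, labelled with Cy3 and read on 1 Agilent array. With 1 array per time, no difference between times has a replicate check, and the spread between mice is not known.

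The extracellular matrix is the protein mesh around cells. Fibrillar collagens give it tensile strength and are secreted as procollagens, trimmed by proteases and cross-linked by lysyl oxidases, whereas type IV collagen and nidogen form part of the thin basement membrane, which in the islet is laid down largely by endothelial cells. Fibrillar matrix of the islet lies mainly in its capsule and along vessels, where fibroblasts and pericytes are found.

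Levels are given in log2 units relative to the 75th percentile of the processed signals on that array, so 1 stands for a signal 2-fold above that percentile. They are compared between arrays for 1 probe at a time and not between genes, except in the summed levels of marker lists. Those add the linear values of the genes of a list. The arrays had 66.1% to 84.4% of their spots well above background, and 0 saturated spots. The 75th percentile was lowest, at 543, on the ZT4 array and lay between 1288 and 2181 on the others. Outlier spots numbered 1743 at ZT0 and 166 to 247 on each of the others. A single scan held the 4 arrays from ZT8 to ZT20, while ZT0 and ZT4 were scanned separately, so for those 2 arrays time and scan cannot be told apart. Probes printed 10 times differed between spots of an array by a median SD of 0.0561 to 0.0975 in log2 units, which covers error within an array only. The 13 tested endocrine genes, among them Ins1, Ins2, Gcg and Sst, were well above background on all 6 arrays. A gene was tested only if it was so on at least 3 arrays. Acinar markers were detected as well, 8 of 8 on every array but ZT12, where 7 were. Detection therefore does not show how pure the islets were.

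Most members, 26 of 35, were lowest at ZT16 or ZT20, against 23.3% of all genes tested. Both of those arrays lay below all of the other 4 for 23 of 35 members, against 15.8% of all genes tested, or 16.9% of those with a RefSeq symbol. The count of members was 20 when the probes of a gene were averaged. Taken relative to each gene's own mean, the median over members ran 0.74, 0.47, 0.55, 0.51, -1.40 and -1.16 from ZT0 to ZT20, while the median over all genes stayed between -0.03 and 0.06. The range from the highest to the lowest array reached 4-fold in 30 of 35 members, against 49.3% of all genes, and its median was 7.35-fold among members and 3.94-fold among all genes. The members and lists were chosen with earlier results of these data known, so these excesses describe the list and are not independent evidence. In these pooled samples, fewer cells of a type and less RNA per cell cannot be told apart.

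**Figure D1:**
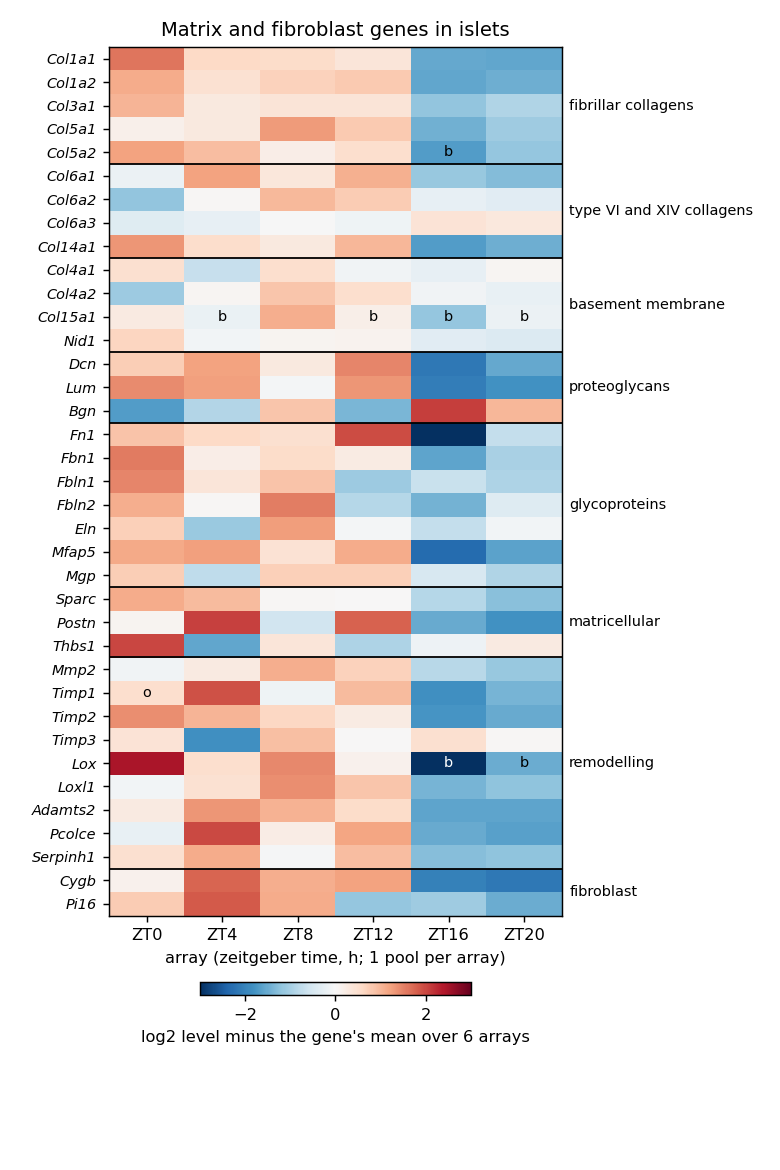
Each row is 1 of the 37 genes, grouped by role, and each column 1 array from ZT0 to ZT20; colour gives the log2 level minus the gene's mean over 6 arrays, from blue (lower) to red (higher), and is capped at 3 either way. The letter b marks a spot not well above background and o an outlier spot, as for Timp1 at ZT0. Most rows are blue at ZT16 and ZT20, whereas Bgn and Col6a3 are red there.

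The promoter windows of a few members are shown to give sequence context for genes that followed the common order and genes that did not. Promoter windows came from RefSeq on GRCm38.p6, running from 250 bases before to 50 after each annotated start, and 23 of 37 members had at least 1, giving 26 windows. Capitals mark 3 motifs searched on both strands: the CCAAT box, which reads ATTGG on the other strand, the TATA box as TATAAA, which reads TTTATA there, and the GC box as GGGCGG, which reads CCGCCC there. The windows are Col1a2 at chr6:4505368-4505667 on the plus strand and Col3a1 at chr1:45311288-45311587 on the plus strand, both genes of fibrillar collagen; Col4a1 at chr8:11312777-11313076 on the minus strand and Col4a2 at chr8:11312555-11312854 on the plus strand, a head-to-head pair; and Bgn at chrX:73483351-73483650 on the plus strand.
Col1a2: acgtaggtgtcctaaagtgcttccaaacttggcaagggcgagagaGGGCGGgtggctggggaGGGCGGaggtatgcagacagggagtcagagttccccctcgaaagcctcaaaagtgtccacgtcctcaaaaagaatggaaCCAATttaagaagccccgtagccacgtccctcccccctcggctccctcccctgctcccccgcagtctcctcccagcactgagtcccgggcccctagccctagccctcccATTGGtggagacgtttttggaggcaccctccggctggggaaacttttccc
Col3a1: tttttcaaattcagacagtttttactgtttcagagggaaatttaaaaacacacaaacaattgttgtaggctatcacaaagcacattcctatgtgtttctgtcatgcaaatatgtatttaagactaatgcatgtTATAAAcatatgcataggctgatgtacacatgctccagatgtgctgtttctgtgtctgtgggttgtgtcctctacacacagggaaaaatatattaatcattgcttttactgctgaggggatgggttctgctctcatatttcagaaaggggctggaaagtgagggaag
Col4a1: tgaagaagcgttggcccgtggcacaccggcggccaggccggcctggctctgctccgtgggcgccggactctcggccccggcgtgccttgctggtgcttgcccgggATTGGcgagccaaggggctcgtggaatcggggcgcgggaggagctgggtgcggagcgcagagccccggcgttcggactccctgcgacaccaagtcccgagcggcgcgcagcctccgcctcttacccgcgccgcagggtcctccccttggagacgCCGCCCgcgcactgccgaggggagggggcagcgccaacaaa
Col4a2: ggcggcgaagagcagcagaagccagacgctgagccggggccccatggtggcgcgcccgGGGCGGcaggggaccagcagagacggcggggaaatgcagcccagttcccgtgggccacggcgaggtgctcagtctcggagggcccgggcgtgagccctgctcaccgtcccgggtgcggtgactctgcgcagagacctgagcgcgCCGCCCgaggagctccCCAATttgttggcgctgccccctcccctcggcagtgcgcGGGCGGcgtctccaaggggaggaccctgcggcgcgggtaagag
Bgn: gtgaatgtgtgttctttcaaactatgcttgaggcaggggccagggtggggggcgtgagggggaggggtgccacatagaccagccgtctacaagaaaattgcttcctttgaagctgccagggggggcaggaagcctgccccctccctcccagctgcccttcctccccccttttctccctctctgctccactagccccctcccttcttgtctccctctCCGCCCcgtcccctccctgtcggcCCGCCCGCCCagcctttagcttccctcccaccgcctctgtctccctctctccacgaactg

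The starts from which the windows of Col4a1 and Col4a2 were cut lay 21 bases apart, and the windows overlapped by 78 bases at chr8:11312777-11312854. The window of Bgn held 3 GGGCGG matches, all on the other strand and 2 of them overlapping, and that of Col3a1 held 1 TATAAA match. The CCAAT box lay in 8 of the members' 26 windows and in 37.4% of all 32851. TATAAA lay in 2 of the members' windows, those of Col3a1 and Postn, and in 13.6% of all. GGGCGG lay in 17 of the members' windows and in 35.7% of all. The palindrome CACGTG, the E-box that the circadian activators CLOCK and BMAL1 bind, lay among members only in the 2 windows of Fbln1, and in 7.15% of all windows. A match is a run of letters and not a shown binding site, and no match says only that these letters are absent from the window.

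All 5 fibrillar collagen genes had ZT16 and ZT20 below the other 4 arrays, with ranges of 4.55- to 8.94-fold. Col1a1, which encodes the alpha 1 chain of type I collagen, gave 5.76, 4.75, 4.71, 4.52, 2.62 and 2.60 from ZT0 to ZT20, the order used for all series of 6 values. Col1a2, the alpha 2 chain of the same trimer, gave 4.54, 3.89, 4.12, 4.22, 1.88 and 1.98. For Col1a1 the lowest of the first 4 arrays was 3.73-fold above the higher of the last 2, and for Col1a2 this gap was 3.77-fold. Col3a1, whose product forms type III collagen in pliant tissue, gave 4.76, 4.05, 4.15, 4.15, 2.58 and 2.85, with a gap of 2.30-fold. Col5a1 and Col5a2 encode chains of type V collagen, which starts type I fibrils. Col5a1 gave -1.46, -1.33, -0.34, -0.84, -3.05 and -2.69, and was highest at ZT8 whereas the other 4 were highest at ZT0. Col5a2 gave -2.27, -2.56, -3.28, -2.97, -5.15 and -4.63, and its ZT16 spot was not well above background, so its range was at least 7.35-fold.

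The collagens of fibril surfaces and of beaded filaments were mixed. Col14a1, a collagen that binds the surface of fibrils, followed the fibrillar order on the probe used, at 1.55, 0.77, 0.54, 1.25, -1.44 and -1.23. Its second probe was lowest at ZT0, at -5.02, and highest at ZT20, so the 2 probes disagreed. Type VI collagen is a beaded filament whose chains come from Col6a1, Col6a2 and Col6a3, and these 3 did not share an order. Col6a1 gave 2.45, 3.85, 2.98, 3.70, 1.49 and 1.33 and had both late arrays lowest. Col6a2 was lowest at ZT0, at -3.53, and highest at ZT8, at -1.37. Col6a3 spanned only 1.69-fold, the smallest range of the tested members, from 1.13 at ZT0 to 1.89 at ZT16.

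Basement membrane genes had the smallest median range of the 8 groups on the probes used, at 2.27-fold, and 0 of 3 tested members reached 4-fold. Col4a1 and Col4a2, the chains of the common type IV collagen, are transcribed in opposite directions from the overlapping windows shown. Col4a1 gave 1.53, 0.36, 1.54, 0.94, 0.81 and 1.09 and was lowest at ZT4. Col4a2 gave -0.83, 0.32, 1.09, 0.75, 0.15 and 0.03 and was lowest at ZT0. Both were highest at ZT8 but differed in which array was low. ZT4 minus ZT0, on arrays from separate scans, was -1.17 for Col4a1 and 1.15 for Col4a2. Nid1, which links laminin to type IV collagen, gave 2.33, 1.61, 1.78, 1.79, 1.35 and 1.29, and was the only 1 of the 3 with both late arrays lowest, by a gap of 1.20-fold. A second Nid1 probe was lowest at ZT4. Col15a1, a basement membrane collagen of vessels, was below background on 4 of 6 arrays and had no usable order.

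The small leucine-rich proteoglycans split in opposite directions. Dcn encodes decorin, which coats collagen fibrils, and gave 4.37, 4.85, 3.92, 5.09, 1.48 and 2.09, a range of 12.2-fold. Lum encodes lumican, which sets fibril spacing, and gave 3.08, 2.89, 1.61, 3.00, -0.41 and -0.16, a range of 11.3-fold. Bgn encodes biglycan, close to decorin in sequence, and gave -3.01, -2.24, -0.52, -2.71, 0.74 and -0.34. Bgn was therefore highest at ZT16, where Dcn and Lum were lowest.

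Among the glycoproteins and elastic fibre genes, Fn1 had the widest range of all tested members. Fn1 encodes fibronectin, an adhesive protein that cells assemble into fibrils, and gave 3.48, 3.22, 3.09, 4.57, -0.55 and 1.91, a range of 34.8-fold. It was highest at ZT12 and lowest at ZT16, with a ZT20 minus ZT16 difference of 2.45, whereas 31 of 34 members were within 2-fold between those arrays, as were 92.2% of all genes. That count left out genes below background on both arrays, among members Lox. Fbn1, which encodes the microfibril protein fibrillin 1, gave -0.26, -1.61, -1.26, -1.56, -3.40 and -2.80. Mfap5, a protein of the same microfibrils, gave -0.28, -0.21, -0.98, -0.32, -3.74 and -3.04, a range of 11.6-fold. Both had the late arrays lowest, as did Fn1, so 3 of the 7 genes of this group did.

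The other 4 did not. Fbln1 and Fbln2, fibulins that join elastic fibres and basement membranes, had ranges of 5.84-fold and 7.74-fold. Fbln1 gave -0.10, -1.20, -0.70, -2.65, -2.23 and -2.49 and was already low at ZT12. Fbln2 gave 0.64, -0.43, 1.08, -1.31, -1.87 and -0.85, so that ZT12 was below ZT20. Eln, the elastin gene, was lowest at ZT4, at -2.44, and highest at ZT8, at -0.08. Mgp, an inhibitor of calcification, gave 3.44, 1.93, 3.41, 3.41, 2.23 and 1.79, with ZT4 below ZT16.

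The matricellular genes, whose products signal to cells and do not build fibres, showed 3 different orders. In 2 of the 3, Sparc and Postn, ZT16 and ZT20 were both below the rest. Sparc, a collagen-binding protein, gave 6.45, 6.28, 5.36, 5.34, 4.47 and 4.08, with the highest array at ZT0 and the lowest at ZT20. A second Sparc probe was also lowest at ZT20, at 2.70, but highest at ZT4, at 5.04. Postn encodes periostin, which links collagen to integrins, and gave 1.61, 3.59, 0.95, 3.31, 0.03 and -0.29, high at ZT4 and ZT12. Thbs1 encodes thrombospondin 1, which can activate latent TGF-beta, and gave 1.50, -2.08, -0.15, -1.44, -0.67 and -0.24, high only at ZT0.

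Remodelling genes, which trim, cross-link or degrade matrix, had both late arrays lowest in 7 of 8 tested members on the probes used, the exception being Timp3. The second probes of Timp2, Lox, Loxl1 and Adamts2 did not have both late arrays lowest, so for these genes the count depends on the choice of probe. Pcolce, an enhancer of the protease that removes the C-propeptide, gave 2.25, 4.45, 2.70, 3.66, 0.97 and 0.86. Adamts2, the protease that removes the N-propeptide, gave -0.45, 0.61, 0.33, -0.16, -2.29 and -2.30 on the probe used, but its second probe was highest at ZT16 and lowest at ZT0. Serpinh1, the collagen chaperone HSP47, gave 2.86, 3.49, 2.35, 3.30, 1.11 and 1.17. On the probes used, all 3 were highest at ZT4 and had late arrays below the rest.

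The lysyl oxidases cross-link collagen and elastin. Lox gave -1.91, -3.86, -2.93, -4.23, -7.41 and -5.87, and its ZT16 and ZT20 spots were not well above background, so the range was at least 11.8-fold and the 2 late arrays have no order. Loxl1 gave -1.63, -1.09, -0.16, -0.73, -2.95 and -2.77, with the highest array at ZT8; a second Loxl1 probe was also highest at ZT8 but lowest at ZT4. Mmp2, the gelatinase that cuts denatured collagen and basement membrane collagen, gave -2.29, -1.91, -1.08, -1.49, -3.01 and -3.31. These 3 therefore placed ZT16 and ZT20 below the rest on the probes used.

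The metalloproteinase inhibitors differed from each other. Timp2 gave 3.09, 2.70, 2.31, 1.93, -0.09 and 0.16, with a gap of 3.41-fold between the first 4 arrays and the last 2, but its second probe was lowest at ZT0, at -2.66, and highest at ZT12, at 1.26. Timp3, an inhibitor that binds to the matrix, was lowest at ZT4, at -0.75, and highest at ZT8, at 1.99, with a value of 1.58 at ZT16. Timp1 was not tested because of the outlier spot at ZT0; its values were -1.18, 0.25, -1.79, -0.73, -3.51 and -3.06.

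Cygb and Pi16 are expressed in fibroblast-like cells, Cygb encoding cytoglobin, an oxygen-binding globin of stellate cells and fibroblasts. Cygb gave -0.12, 1.47, 0.83, 0.93, -2.28 and -2.41, a range of 14.7-fold with late arrays lowest. Pi16, a peptidase inhibitor gene that marks adventitial fibroblasts, gave -0.98, 0.10, -0.62, -2.90, -2.79 and -3.23, and was low from ZT12 on.

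**Figure D2:**
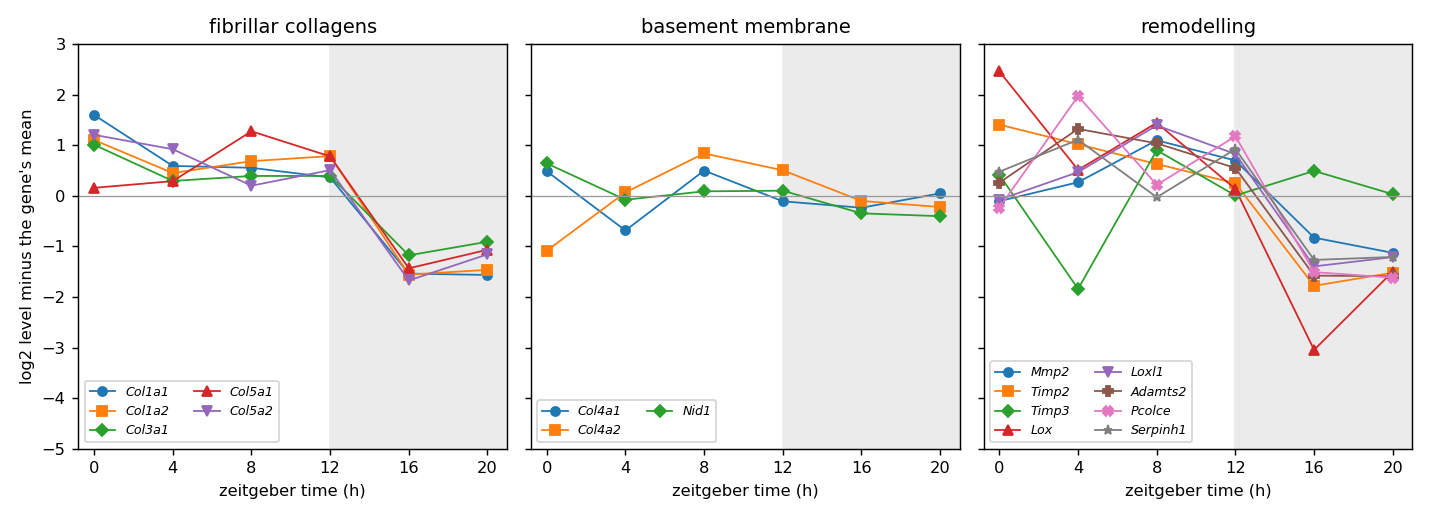
The lines give the log2 level of each tested gene minus its mean over 6 arrays against zeitgeber time in h, for the fibrillar collagens, the basement membrane genes and the remodelling genes; each point is 1 array and the grey area is the dark phase. The fibrillar collagens and all remodelling genes but Timp3 lie below 0 at ZT16 and ZT20, and the 3 basement membrane genes span at most 3.79-fold.

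Set side by side, fibrillar collagens had a median deviation of -1.54 at ZT16 and -1.16 at ZT20, and remodelling genes of -1.45 and -1.36. Basement membrane genes had -0.24 and -0.22, and the sign of the ZT20 value turned to 0.05 when the probes of a gene were averaged. The median range was 2.71 in log2 units for fibrillar collagens, 2.85 for remodelling genes and 1.18 for basement membrane genes, or 1.92 for the last when probes were averaged. With 5, 8 and 3 genes these are descriptions, and no test of the differences was made.

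Array by array, counts were made over the 33 members well above background on all 6 arrays, each against the median of the other 5. The members at least 2-fold above it numbered 11, 9, 10, 9, 1 and 1 from ZT0 to ZT20, against 15.2%, 23.9%, 6.35%, 17.6%, 10.1% and 10.3% of all genes. The 1 at ZT16 and at ZT20 was Bgn. The members at least 2-fold below it numbered 3, 5, 1, 4, 23 and 23, against 18.4%, 15.8%, 1.74%, 18.1%, 12.3% and 11.9% of all genes. The counts below the median at ZT4 and ZT12 were near the share of all genes, and those at ZT16 and ZT20 were well above it. The difference between ZT16 and ZT12, arrays of the same scan, had a median of -1.90 among members and of 0.05 among all genes. With spots below background set to the floor, 22 of 35 members were at least 2-fold lower at ZT16, against 20.8% of all genes, and only Bgn was at least 2-fold higher, against 23.4%. The difference between ZT4 and ZT0, arrays of separate scans, was at least 2-fold up in 8 of 35 members, against 28.1% of all genes, and down in 10, against 21.8%. These member counts are near the share of all genes, and the members ran from 2.20 for Pcolce to -3.59 for Thbs1. The median of all genes for that difference was 0.07, or 0.18 after quantile normalization, which turned the sign for 3 of 35 members.

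**Figure D3:**
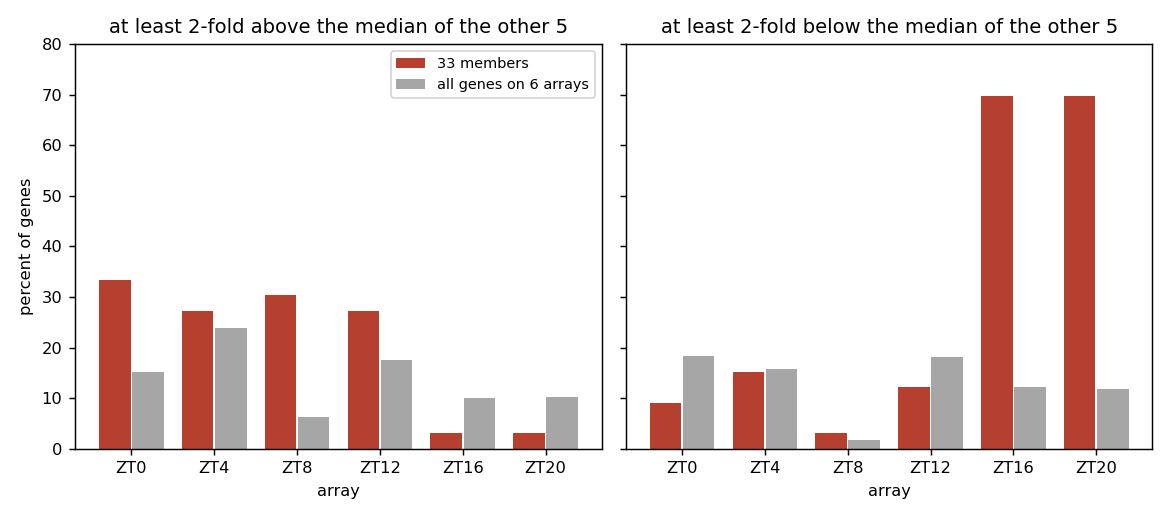
Bars give the percent of genes at least 2-fold above (left) or below (right) the median of the other 5 arrays at each zeitgeber time, red for the 33 members and grey for all genes well above background on 6 arrays. At ZT16 and ZT20 the red bars for genes below the median stand far above the grey ones, which are 12.3% and 11.9%.

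Whether the members followed a daily wave was asked with limma, which fitted a cosine with a period of 24 h and tested its 2 terms with a moderated F test, adjusted over all genes by Benjamini-Hochberg. After adjustment 0 of 35 members and 0.0% of all 24127 genes passed, with a smallest adjusted p of 0.754, and an F test without shrinkage of the variance also gave 0. At an unadjusted p under 0.05 the moderated test gave 6 members and 4.0% of all genes, 965 in number, and the test without shrinkage gave 5 members and 681 genes. The 6 were Timp2, Lox, Loxl1, Adamts2, Cygb and Pi16. Peak minus trough was 4.07 ± 0.89 (SE) for Cygb with an unadjusted limma p of 0.0078, and 3.46 ± 0.78 for Pi16 with an unadjusted p of 0.0089. It was 3.19 ± 0.73 for Adamts2, 2.71 ± 0.76 for Loxl1 and 3.02 ± 0.91 for Timp2. Lox had 2 spots not well above background, and with such values set to the floor its unadjusted limma p was 0.14, and with normexp background correction 0.0865. With the probes of a gene averaged, Lox, Loxl1 and Adamts2 no longer passed that threshold, at unadjusted limma p-values of 0.157, 0.181 and 0.174. Leaving out the ZT0 array or the ZT8 array changed the count of 6 to 10, leaving out ZT12 to 18, leaving out ZT16 to 2, and leaving out ZT20 to 1. The 6 came from remodelling and fibroblast genes, and 0 of the 5 fibrillar collagens were among them, which does not show that the fibrillar collagens differ from those 6.

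The fitted peaks of most members lay close together. For 27 of 35 the peak fell between ZT3 and ZT8, where 23.3% of all genes had theirs, and the median peak minus trough was 2.33 among members and 1.33 among all genes. These fits rest on the same 6 arrays for every member. A 24 h cosine places the peak of a gene low only at ZT16 and ZT20 on the opposite side of the day. The shared peak times therefore largely restate the low late arrays and are not a separate result on timing. Only 6 of the 35 fits had an unadjusted limma p under 0.05. The 8 members with a peak outside ZT3 to ZT8 were Col4a1, Col4a2, Col6a2, Col6a3, Bgn, Timp3, Thbs1 and Mgp, with Timp3 at ZT15.1, Bgn at ZT15.9 and Col6a3 at ZT16.3.

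**Figure D4:**
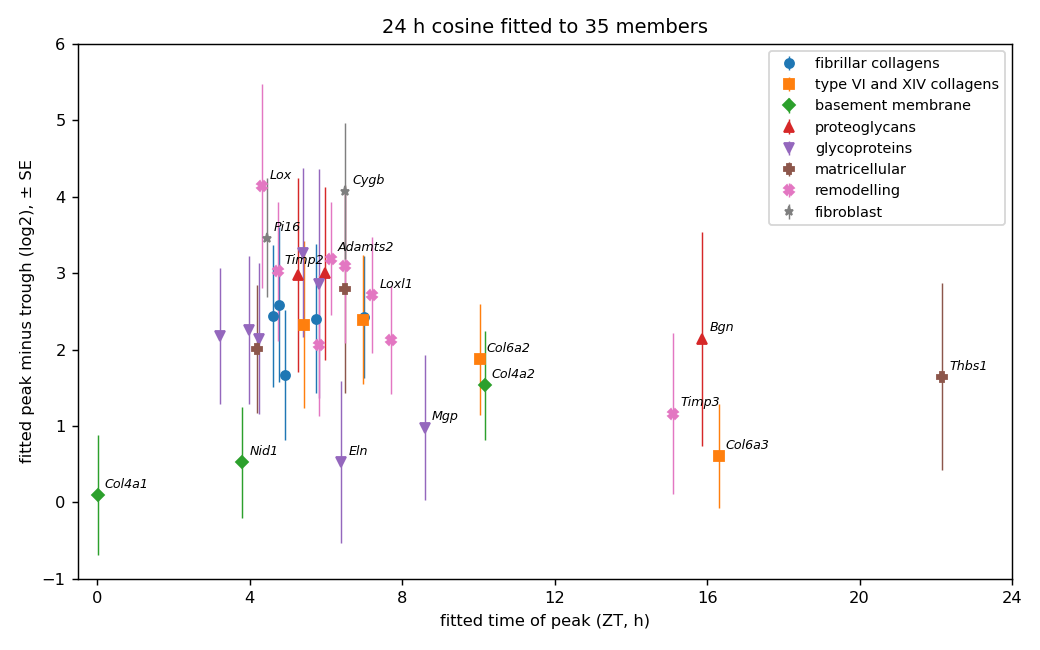
Each point is 1 of the 35 tested members, with the fitted time of peak in h on the horizontal axis and the fitted log2 distance of peak and trough on the vertical axis; bars are ± 1 SE of the fit and colours and symbols give the role. Most points lie between ZT3 and ZT8, while Col6a3, Timp3 and Bgn lie near ZT16 and Thbs1 near ZT22.2.

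A further 6 lists of matrix genes were described in the same way. Of all genes tested, 15.8% had both late arrays below the rest, the share to set beside the count of each list. The counts for other collagens and for collagen biosynthesis enzymes were near that share. Other collagens had both late arrays below the rest in 3 of 23 tested genes, and their widest ranges were those of Col6a6, at 17.2-fold and highest at ZT16, and of Col17a1, at least 14.7-fold, against 1.46-fold for Col9a1. Laminins and basement membrane linkers had 7 of 14, with 8.22-fold for the laminin chain gene Lamb2 and 7.42-fold for the nidogen gene Nid2, against 2.03-fold for Agrn, which encodes agrin. Collagen biosynthesis enzymes had 3 of 18, with 19.4-fold for P4ha3, a prolyl hydroxylase highest at ZT16, and 16.7-fold for the lysyl oxidase gene Loxl2, highest at ZT20, against 2.52-fold for Pcolce2. Of the first list, 0 genes had an unadjusted limma p under 0.05, of the second 1, and of the third 0, against 4.0% of all genes.

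Matrix proteases and their inhibitors had both late arrays lowest in 7 of 16, with 21.2-fold for Timp4 and 20.8-fold for Adam12, which was highest at ZT16, against 1.36-fold for Mmp19. TGF-beta pathway genes had 9 of 17, with 17.1-fold for Tgfbi, a TGF-beta-induced matrix protein gene, and 16.6-fold for Ltbp2, against 1.81-fold for the signal transducer gene Smad2. Matrix receptors had 6 of 17, with 22.1-fold and 16.9-fold for the integrin genes Itga8 and Itgb3, against 1.83-fold for the syndecan gene Sdc2. In these 3 lists 2, 3 and 2 genes had an unadjusted limma p under 0.05, against 4.0% of all genes.

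Markers of several cell types were low on the same arrays. Of the fibroblast markers that are not members, 7 of 8 were tested (Tcf21 was not), and their median deviation was -1.15 at ZT16 and -0.97 at ZT20. Their summed level in log2 units ranged over 5.83 to 7.45 on the first 4 arrays and was 4.40 and 4.39 on the last 2. Genes of strong signal weigh most in such a sum. Thy1, at 7.11 and 6.44, made up most of the sums of 7.45 at ZT4 and 6.86 at ZT12. Gsn, at 6.49, made up most of the sum of 6.81 at ZT0. Of the 7 tested fibroblast markers, 4 had both late arrays below the rest, against 15.8% of all genes tested. Of the others, 2 were lowest at ZT0 and 1 at ZT4.

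Lymphocyte markers, all 9 tested, had medians of 2.51 and 2.12 on the ZT4 and ZT12 arrays and of -3.10 and -2.69 on the last 2. Their summed levels were 6.18 to 8.43 on the first 4 arrays and 4.88 and 3.96 on the last 2. Cd3e, at 4.635, made up most of the sum of 4.88 at ZT16, and was itself lowest at ZT0. Macrophage markers, 7 of 8 tested, had -1.79 and -1.18 on the last 2, with summed levels of 4.51 to 7.25 on the first 4 and 2.98 and 3.14 on the last 2. Smooth muscle markers, all 8 tested, had -2.56 and -0.91, with summed levels of 5.76 to 8.02 against 4.30 and 4.47. Tagln, at 4.01, made up most of the sum of 4.30 at ZT16. Lymph node stroma markers, 5 of 6 tested, had -1.84 and -1.80, pericyte markers -0.48 and -0.31, and endothelial markers -0.15 and -0.27. Endocrine markers, 13 of 14 tested (Mafa was not), had 0.95 and 0.76 there, against -2.41 on the ZT12 array. Mesothelial markers, of which 2 of 6 were tested, had 0.54 and 0.61, acinar markers 0.04 and 0.53, duct markers 0.10 and 0.31, and Schwann cell markers 0.00 and 0.42. The part of these cell types in the members' values was not tested.

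**Figure D5:**
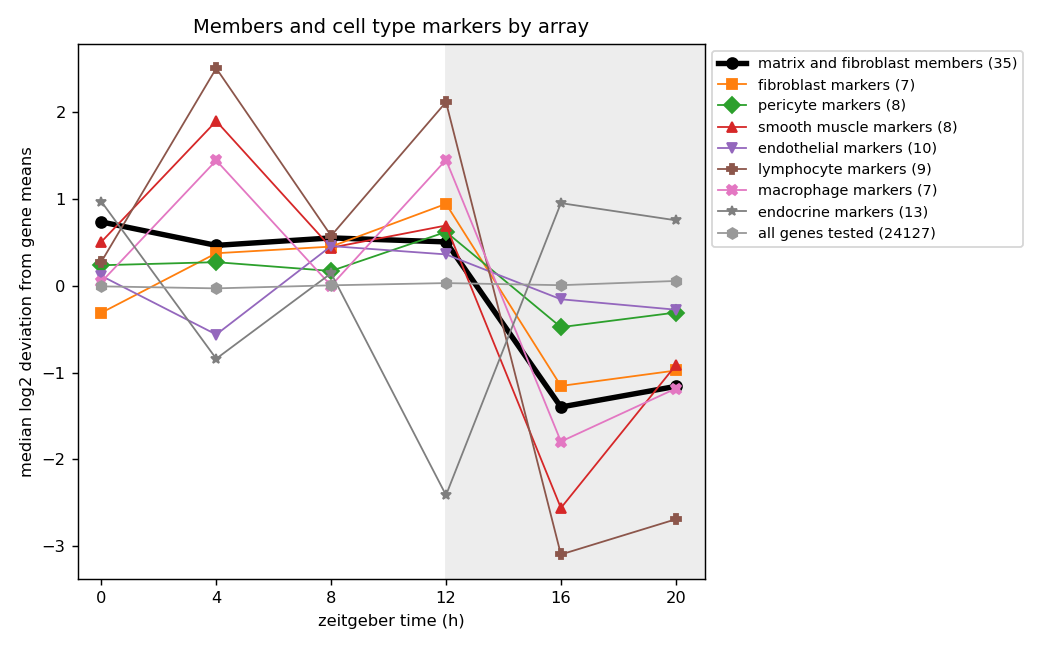
Lines give the median log2 deviation from each gene's mean over 6 arrays, by zeitgeber time in h, for the 35 members (black) and for marker lists of 7 cell types, with all genes tested in light grey; the shaded area is the dark phase and the legend gives the number of genes. The members, fibroblast, lymphocyte, macrophage and smooth muscle lists are below 0 at ZT16 and ZT20, where the endocrine list is above 0. The pericyte and endothelial lists are also below 0 there, but by less.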

How the data were processed

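Total RNA of islets was measured on 6 one-colour arrays, 1 per zeitgeber time. The deposited processed signals were made, as the file headers and the submitters' processing notes state, with Feature Extraction 11.0.1.1 and are linear intensity values, background-subtracted and detrended within the array and not normalized between arrays. The deposited flags for background, saturation and outliers served as filters. The authors' deposited value table holds log2 values of 30170 probes, whose column medians were 8.62 to 8.63; their steps after Feature Extraction are not given in the sources used here, and this table served only as an alternative.

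Control spots were dropped and the spots of a probe averaged, leaving 39429 probes, of which 27234 (69.1%) took a symbol from RefSeq names of GRCm38.p6; a probe without one kept the name in the files and was counted as a gene under it. Tested probes were well above background on at least 3 arrays and free of outlier flags, and the probe of highest mean stood for its gene. Spots not well above background entered ranges at the higher of their own value and the lowest detected value of that array. The cosine was fitted with limma 3.58.1 in R 4.3.3, with 3 residual degrees of freedom. The fit was also run on simulated data with a noise level set by hand and not taken from these arrays. That run covers the calculation only.

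The members, the lists and the tests were chosen with earlier results of these data known. All 37 members are named; of each other matrix list, the 2 genes of widest and the 1 of smallest range are named. Alternatives changed the normalization, background correction, source of values, filters, choice of probe, arrays used, scan and shrinkage. The number of arrays limits the precision.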

Additional observations from a re-analysis of the deposited data

How the results depend on the processing

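Results were repeated under alternative settings, 903 values in all. Of 168 repeats of the median deviations of the members and of the 3 groups plotted, 7 turned sign, 0 of them for all members together. For fibrillar collagens at ZT4, 0.45 in the main setting, the median was -0.02 with quantile normalization and -0.02 with the authors' deposited table. For basement membrane genes at ZT12, 0.10 in the main setting, it was -0.06 under both of these and -0.07 when the probes of a gene were averaged. That averaging also gave 0.05 for basement membrane genes at ZT20 and -0.17 for remodelling genes at ZT0. Restricting all genes to those with a RefSeq symbol, an alternative chosen after seeing the data, left 48.2% with a range of at least 4-fold. The count of members with both late arrays below the rest was 23. It lay between 20, with the probes of a gene averaged, and 27, from the arrays that share a scan. The repeats without single arrays and on the arrays that share a scan were chosen after seeing the data. With fewer arrays to compare the rule is easier to meet, so those repeats could not lower the count. Members with an adjusted p under 0.05 numbered 0 in all 16 alternatives. Members with an unadjusted limma p under 0.05, 6 in the main setting, numbered 11 with quantile normalization, 11 with the authors' deposited table, and 1 to 18 when single arrays were left out. All genes with such a p, 965 in the main setting, numbered 348 to 4026 when single arrays were left out and 439 with the scan as a covariate. The percent of all genes with a range of at least 4-fold was 32.3 with normexp background correction and 25.7 on the 4 arrays that share a scan. A range over 4 arrays cannot exceed the range over 6, so this last percent could not rise. The median range of basement membrane genes was 1.92 in log2 units when the probes of a gene were averaged. The cause of the other changes was not tested. Of the repeats of single members' amplitudes, 484 kept their side of the threshold, 52 moved past it and 22 no longer passed. No paired analysis was possible because each time point had 1 array.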
